A study of Saccharomyces cerevisiae with 3 samples.

Results

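The deletion of *RTG3* was examined here in yeast that already lacked *MET15*, by setting the array of rtg3Δ met15Δ cells against that of met15Δ cells, both aged to day 3. The comparison covers the 4782 *S. cerevisiae* probe sets, of 5498 on the array, that had a signal of at least 500 on at least 1 of these arrays, which read 4749 genes. Taken by gene, as the mean of a gene's probe sets on the log2 scale, 4746 of 5449 genes met the same minimum. The members nearest to it were *UBA3* (signals of 409 in rtg3Δ met15Δ and 500.1 in met15Δ cells) and *YBR138C* (501 and 169 in the same genotypes) just inside, and *GPX2* (484 and 499.6) and *YOR389W* (499 and 253) just outside.

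Affymetrix Yeast Genome 2.0 arrays were hybridized with RNA from haploid cells grown in synthetic complete medium, with 1 array for each of 3 genotypes. The rtg3Δ met15Δ cells lack both the Rtg3 transcription factor and the sulfhydrylase that *MET15* (*MET17* in the annotation) encodes, the met15Δ cells lack only that sulfhydrylase, and the wild-type cells carry neither deletion. All strains came from the BY4741/BY4742 background and carried *his3Δ1*, *leu2Δ0* and *ura3Δ0*, and the *RTG3* deletion was marked with *KanMX*. No rtg3Δ array with intact *MET15* was used here, so the comparison concerns the loss of *RTG3* in methionine-auxotrophic cells only. That loss cannot be told apart from other differences between the 2 cultures or arrays. With 1 array per genotype there is no spread between cultures, so values are given without errors or tests, and the number of arrays limits the precision. Signals are linear RMA values in arbitrary units, and a gene was called higher or lower when they differed at least 2-fold.

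Rtg3 forms a dimer with Rtg1, another basic helix-loop-helix protein, and the pair drives the retrograde response, in which the nucleus adjusts its transcription to the state of the mitochondria. Rtg2 promotes the entry of the dimer into the nucleus, whereas Mks1, held by the 14-3-3 proteins Bmh1 and Bmh2, opposes it. The best known target is *CIT2*, for the peroxisomal citrate synthase, and with the first enzymes of the tricarboxylic acid cycle it feeds carbon towards 2-oxoglutarate, the precursor of glutamate. Glutamate in turn gives its nitrogen to most other amino acids.

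The deleted genes were at background where the labels place the deletions. *RTG3* had a signal of 28.7 in rtg3Δ met15Δ cells, against 2215 in met15Δ and 2703 in wild-type cells, a difference of at least 7.66-fold between the mutants. *MET17* had 89.9 in rtg3Δ met15Δ and 85.0 in met15Δ cells, with 2874 in wild-type cells. Probe sets of a second yeast species on the array serve as background, with a median of 29.5 on the rtg3Δ met15Δ and 29.0 on the met15Δ array and highest signals of 289 and 273. Where the lower of a pair of signals was under that highest value, the fold is given as "at least", taken against it. None of the 1746 probe sets of the other species differed 2-fold between these arrays. Their signals all lay under the signal minimum, so this does not bear on noise among the compared genes. Among 32 genes with more than 1 probe set, the log2 ratios of a gene's probe sets lay a median of 0.0894 apart, with 2 genes over 1 apart. The gene *SEA4*, the neighbour of *RTG3* on one side, had a signal of 594 in rtg3Δ met15Δ and 1508 in met15Δ cells (2.54-fold lower), while the next gene on that side, *PKC1*, had 2924 and 3478 in the same genotypes, and *SFT2*, on the other side, 3538 and 4022. Median log2 ratios by chromosome, read from the systematic names, lay between -0.19 and -0.0052.

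Several properties of the arrays bear on every value below. For the 21 probe sets of bacterial spike-in controls (bioB, bioC, bioD) the median log2 ratio between rtg3Δ met15Δ and met15Δ cells was 0.78, against -0.07 for the 4746 genes. Scaling to these controls would lower every log2 ratio by 0.78, and whether equal amounts of them were added to each sample is not given in the sources used here. Changes are therefore best read relative to the median of all genes, which such a shift leaves in place, and the value after that scaling is given where it turns the sign of a list's median. The ratio of 3' to 5' signal, a sign of RNA integrity, was 2.37 for *ACT1* in rtg3Δ met15Δ and 2.24 in met15Δ cells, and 2.60 and 3.84 for *SPT15* in the same genotypes. In the same order it was 12.9 and 10.4 for *SRB4*, 5.47 and 5.24 for *WBP1* and 3.67 and 3.75 for *EAF5*. For *TDH1* it was 1.20 and 1.10, and for *RIP1* 1.14 and 1.21. The part of this ratio in the results was not tested.

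At the mating-type loci both mutant arrays carried the pattern of a cells, although some alpha-specific genes were above background on them, as given below. *HMRA1*, identical in sequence to the gene at an active a locus, had a signal of 5016 in rtg3Δ met15Δ and 4073 in met15Δ cells, while *HMLALPHA1* lay at 59.7 and 71.5, within background. The wild-type array showed the other pattern, with 47.1 for *HMRA1* and 977 for *HMLALPHA1*. Wild-type signals are therefore given only beside single genes, and mating type and the mutations cannot be told apart in them.

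Loss of *RTG3* was accompanied by lower signals for genes that make amino acids, purines, one-carbon units and vitamins, and for genes of acetate, ethanol and carnitine metabolism, whereas many genes of wall remodelling and phospholipid synthesis had higher ones, with list medians of 1.75 for wall glucanases and 0.99 for sphingolipid and phospholipid genes, or 0.97 and 0.21 with the bacterial scaling. Of the 4782 probe sets, 509 (10.6%) had at least 2-fold more signal and 555 (11.6%) at least 2-fold less in rtg3Δ met15Δ than in met15Δ cells. By gene the numbers were 505 of 4746 higher (10.6%) and 552 lower (11.6%), which is the background against which each list below stands. At least 4-fold differences were seen for 99 higher and 74 lower genes, and at least 8-fold ones for 26 and 23. Of the calls, 58 of the higher and 36 of the lower genes rest on a lower signal within background. Of the higher genes 130 met the signal minimum only through the double mutant, and of the lower genes 110 only through met15Δ cells, so that their calls follow in part from the minimum. With scaling to the bacterial controls 138 probe sets were higher and 2049 lower, and when each array was divided by the median of all its probe sets, 390 and 834, so that higher calls made up 6.31% and 31.9% of all calls rather than 47.8%.

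**Figure D1:**
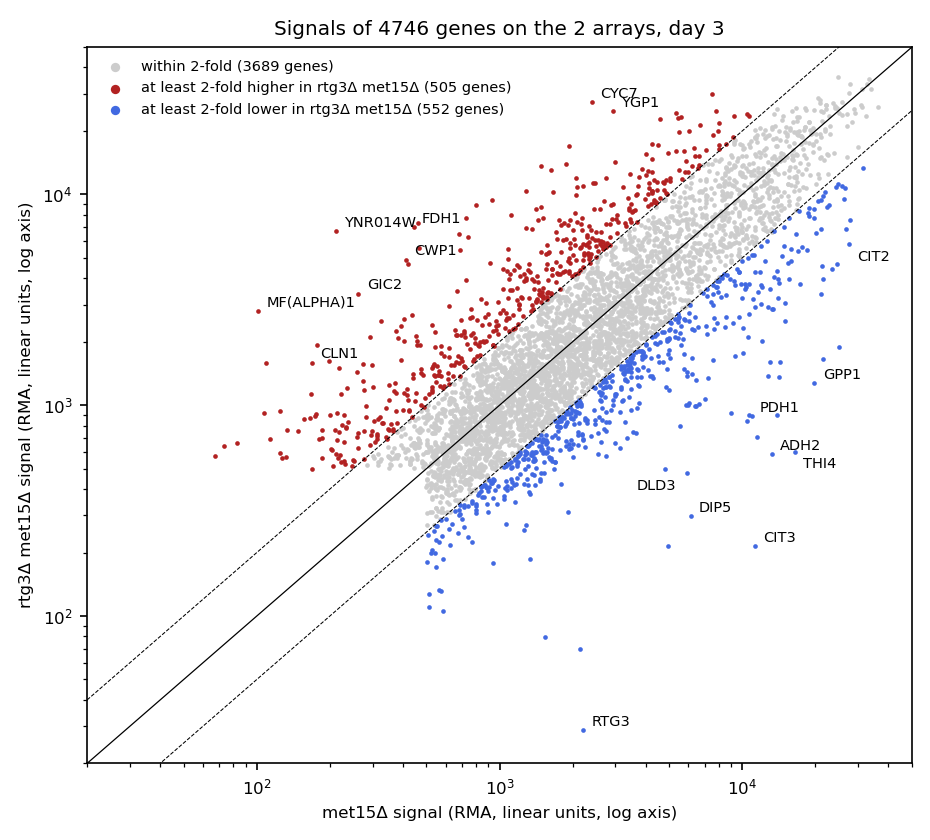
Signal of each of the 4746 genes in met15Δ cells (horizontal, log axis) and in rtg3Δ met15Δ cells (vertical, log axis), 1 array each; the solid line marks equal signals and the dashed lines a 2-fold difference. *RTG3* and *CIT3* lie far below the lines, and *YNR014W* and *MF(ALPHA)1* far above.

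The known targets of the retrograde response were divided. *CIT2* and a pair of dehydrogenase and dehydratase genes stood far lower without *RTG3*, while the mitochondrial enzymes that open the tricarboxylic acid cycle did not. *CIT2* had a signal of 5793 in rtg3Δ met15Δ cells, against 27483 in met15Δ and 27727 in wild-type cells. *DLD3*, a cytosolic 2-hydroxyglutarate and lactate dehydrogenase, had 475 in rtg3Δ met15Δ, 5905 in met15Δ and 10629 in wild-type cells, and *PDH1*, the 2-methylcitrate dehydratase, 888, 10916 and 9240.3 in the same order. These are 4.74-fold, 12.4-fold and 12.3-fold differences, and in each of the 3 genes the signal of the double mutant was also below that of wild-type cells.

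For *CIT1*, the mitochondrial citrate synthase, the signals were 21194 in rtg3Δ met15Δ and 23009 in met15Δ cells, and for *ACO1*, aconitase, 19399.6 and 20113. The isocitrate dehydrogenase subunit genes *IDH1* and *IDH2* had log2 ratios of 0.99 and 0.73, on the side of higher signals with the deposited values and of 0.20 and -0.06 with scaling to the bacterial controls. *PYC1*, pyruvate carboxylase, had 19333 in rtg3Δ met15Δ and 22952 in met15Δ cells. Of the 8 targets 3 were thus lower and none higher, with a median log2 ratio of -0.18. *DLD3* met the signal minimum only through met15Δ cells, and for the 7 targets above it on both arrays the median was -0.12.

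Beyond *RTG3* itself, no regulator of the pathway that met the signal minimum differed 2-fold. *RTG2* had 4053 in rtg3Δ met15Δ, 2085 in met15Δ and 3711 in wild-type cells, a log2 ratio of 0.96 between the mutants. *MKS1* was level at 893 in rtg3Δ met15Δ and 902 in met15Δ cells. *BMH1*, *BMH2*, the TOR complex gene *LST8* and the ubiquitin ligase gene *GRR1* had log2 ratios of -0.19, -0.13, 0.47 and -0.51. *RTG1*, the partner of *RTG3*, was under the minimum on both arrays, with 451 in rtg3Δ met15Δ and 261 in met15Δ cells, the second of these within background.

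The methylcitrate cycle, which turns propionyl-CoA into pyruvate and succinate in mitochondria, has *PDH1* as one of its genes. *CIT3*, the citrate and methylcitrate synthase of this cycle, had a signal of 215 in rtg3Δ met15Δ cells, against 11232 in met15Δ and 13437 in wild-type cells, at least 38.8-fold lower. *CIT3* met the signal minimum only through met15Δ cells. The remaining enzyme gene, *ICL2* for 2-methylisocitrate lyase, did not follow *PDH1* and *CIT3*, with 2562 in rtg3Δ met15Δ and 2915 in met15Δ cells. The citrate synthase genes therefore differed among themselves, since *CIT2* and *CIT3* were lower and *CIT1* had a log2 ratio of -0.12.

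Genes that handle acetate and ethanol, the carbon sources left after glucose is spent, were largely on the lower side. Of 20 genes 7 were at least 2-fold lower in rtg3Δ met15Δ cells and none higher (median log2 ratio -0.70). *ADH2*, the alcohol dehydrogenase that oxidizes ethanol, had 587 in rtg3Δ met15Δ, 13192 in met15Δ and 10507 in wild-type cells (22.5-fold between the mutants). *ADY2*, an acetate transporter, had 709 in rtg3Δ met15Δ, 11477 in met15Δ and 4574 in wild-type cells, and its relative *ATO2* 3775, 17202 and 27189 in the same genotypes. The acetyl-CoA synthetase gene *ACS1* was 2.89-fold lower (5487 in rtg3Δ met15Δ, 15839 in met15Δ cells), the mitochondrial aldehyde dehydrogenase gene *ALD5* 4.35-fold and *ADH5* 3.60-fold. *PDC6*, the minor pyruvate decarboxylase, had 896 in rtg3Δ met15Δ, 13844 in met15Δ and 248 in wild-type cells. Other isoenzymes stayed within 2-fold, among them *ADH1* at 24914 in rtg3Δ met15Δ and 20998 in met15Δ cells, *ACS2* at 4339 and 3978, and *ALD4* at 10945 and 16546.

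The carnitine shuttle, which moves acetyl units between peroxisomes, cytosol and mitochondria, was lower in each of its transferase and carrier genes. *YAT2*, a carnitine acetyltransferase, had 1659 in rtg3Δ met15Δ, 21479.6 in met15Δ and 14171 in wild-type cells. *YAT1*, the transferase of the outer mitochondrial membrane, was 6.30-fold lower (3360.3 in rtg3Δ met15Δ, 21161 in met15Δ cells), the mitochondrial carrier gene *CRC1* 9.21-fold (1379 and 12706) and *CAT2*, for the peroxisomal and mitochondrial transferase, 4.64-fold (2862 and 13287). On the list of peroxisomal fatty acid oxidation, which holds these genes, 6 of 17 were lower and none higher (median log2 ratio -0.56). The other 2 that were lower were *PEX11* (2.71-fold), a peroxisome division gene, and the isomerase gene *ECI1* (2.49-fold). The oxidation enzyme genes *POX1*, *FOX2* and *POT1* stayed within 2-fold, with log2 ratios of -0.46, -0.05 and -0.16.

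The glyoxylate cycle and gluconeogenesis went both ways. Apart from *CIT2* and *ACS1*, *ICL1* (isocitrate lyase) had 16543 in rtg3Δ met15Δ and 20689 in met15Δ cells, *MLS1* (malate synthase) 15632 and 23755, and *MDH3*, the peroxisomal malate dehydrogenase, 9444 and 11794. On the gluconeogenic side, *FBP1*, fructose-1,6-bisphosphatase, was 3.63-fold higher, with 12505 in rtg3Δ met15Δ, 3443 in met15Δ and 785 in wild-type cells. *MDH2*, the cytosolic malate dehydrogenase, was 2.43-fold higher (10372 in rtg3Δ met15Δ, 4261 in met15Δ cells). *PCK1*, phosphoenolpyruvate carboxykinase, had 25559 in rtg3Δ met15Δ and 18071 in met15Δ cells, and *IDP2* and the carrier gene *SFC1* had log2 ratios of 0.46 and 0.36. The activator genes of these pathways, *CAT8* and *SIP4*, had log2 ratios of -0.0045 and -0.89.

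Of 17 genes of the tricarboxylic acid cycle 1, the succinate dehydrogenase gene *SDH5* (1359 in rtg3Δ met15Δ, 2837 in met15Δ cells), was at least 2-fold lower and none higher (median log2 ratio 0.07, or -0.72 with the bacterial scaling). In glycolysis 3 of 16 were lower and none higher (median -0.30). *ENO2*, the enolase of fermenting cells, had 4407 in rtg3Δ met15Δ and 23315 in met15Δ cells, while its isoenzyme *ENO1* had 25303 and 28946. *PGK1*, phosphoglycerate kinase, was 2.48-fold lower and *PYK2*, the minor pyruvate kinase, 2.33-fold, against a log2 ratio of -0.21 for the major one, *CDC19*. Of 18 hexose transporter and sensor genes listed, 7 met the signal minimum, *HXT2* only through met15Δ cells. *HXT4* was 2.19-fold higher and *HXT2* at least 2.02-fold lower, both far below wild-type, with 3083 for *HXT4* in rtg3Δ met15Δ, 1406 in met15Δ and 15668 in wild-type cells, and 105, 584 and 21823 for *HXT2* in the same genotypes.

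Respiratory genes had slightly higher signals in rtg3Δ met15Δ cells with the deposited values. The median log2 ratio over 34 genes was 0.27, and 32 of them lay above the median of all genes, but scaling to the bacterial controls turns the list's median to -0.52. The highest ratios on this list were those of the cytochrome c genes. *CYC7*, the isoform of low oxygen, had 27431 in rtg3Δ met15Δ, 2403 in met15Δ and 5866 in wild-type cells (11.4-fold higher). *CYC1*, the major isoform, had 15989.9 in rtg3Δ met15Δ, 5314 in met15Δ and 2728 in wild-type cells. *COX5B*, the low-oxygen isoform of a cytochrome oxidase subunit, was 2.82-fold higher, against a log2 ratio of 0.09 for *COX5A*. On the list of heme and hypoxia 5 of 16 genes stood higher, with no lower gene (median 0.52, or -0.27 with the bacterial scaling), among them *ROX1*, the hypoxic repressor, 3.97-fold, and *HEM12* and *HEM13*, of heme synthesis, 3.20-fold and 2.39-fold higher. *NDE2*, an external NADH dehydrogenase, went the other way, with 4583 in rtg3Δ met15Δ, 21267 in met15Δ and 4140.2 in wild-type cells.

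**Figure D2:**
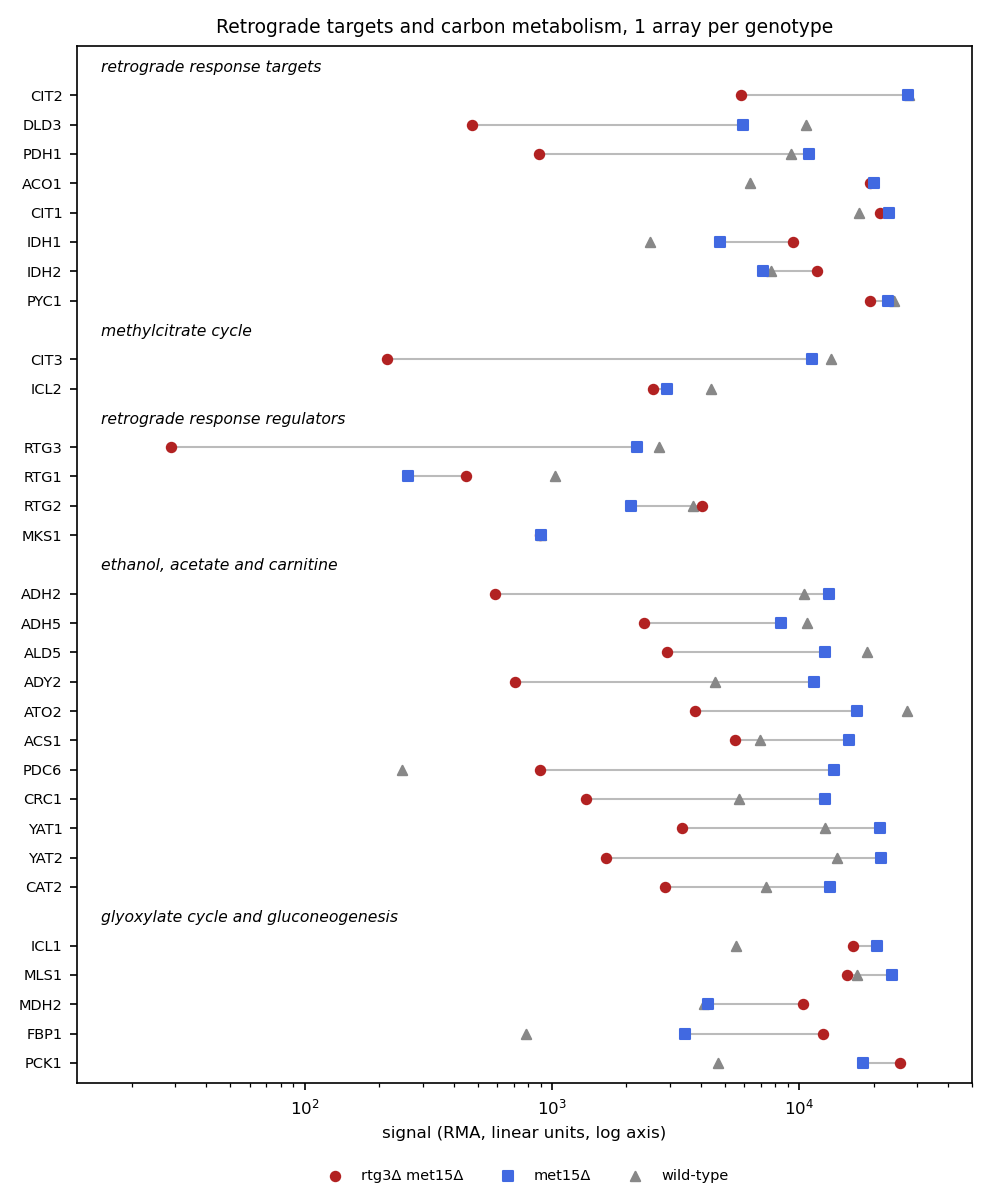
Signals (horizontal, log axis) of genes of the retrograde pathway and of carbon metabolism in rtg3Δ met15Δ (circles), met15Δ (squares) and wild-type cells (triangles), 1 array each, with a line between the mutants. The circles of *CIT3*, *DLD3*, *PDH1*, *ADH2* and *YAT2* lie far left of the squares, those of *ACO1*, *CIT1* and *ICL2* close to them, and those of *MDH2* and *FBP1* to the right; the 3 symbols of *MKS1* overlap.

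Nitrogen assimilation into glutamate was lower in its main enzymes. *GLT1*, glutamate synthase, had 3639 in rtg3Δ met15Δ, 12094 in met15Δ and 17254 in wild-type cells, and the glutamate dehydrogenase genes *GDH1* and *GDH3* were 2.23-fold and 3.08-fold lower in rtg3Δ met15Δ than in met15Δ cells. *GDH2*, which degrades glutamate, and *GLN1*, glutamine synthetase, had log2 ratios of -0.73 and -0.80. Some uptake genes stood opposite to them. *MEP2*, the high-affinity ammonium permease, had 7972 in rtg3Δ met15Δ, 1111 in met15Δ and 15378 in wild-type cells. *UGA4*, the permease of gamma-aminobutyrate, had 2562, 404 and 3573 in the same order and met the minimum only through the double mutant. Of 11 genes for allantoin and urea use 3 were higher and 1 lower (median 0.24, or -0.54 with the bacterial scaling), *DAL3* at least 2.41-fold, *DUR3* 2.99-fold and *DAL7* 2.34-fold higher and the activator gene *GLN3* 2.10-fold lower. All 3 of these higher genes met the minimum only through the double mutant.

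Amino acid synthesis was lower in pathway after pathway. In lysine synthesis, which starts from 2-oxoglutarate, 8 of 10 genes were at least 2-fold lower and none higher, with a median log2 ratio of -1.81. *LYS9*, saccharopine reductase, had 914 in rtg3Δ met15Δ, 8981 in met15Δ and 2517 in wild-type cells. *LYS12*, homoisocitrate dehydrogenase, had 2513 in rtg3Δ met15Δ, 14950.2 in met15Δ and 9525 in wild-type cells. The homocitrate synthase genes *LYS21* and *LYS20* were 3.70-fold and 2.55-fold lower, *LYS1* and *LYS2* 5.33-fold and 4.31-fold, *LYS4* 3.30-fold and the activator gene *LYS14* 2.90-fold. Both exceptions, *LYS5* and the transaminase gene *ARO8*, had log2 ratios of 0.35 and -0.35.

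In the branched-chain pathway 7 of 11 genes were lower and none higher (median log2 ratio -1.36). *BAT1*, the mitochondrial transaminase, had 2026 in rtg3Δ met15Δ, 12018 in met15Δ and 21785 in wild-type cells, whereas its cytosolic counterpart *BAT2* had 7726, 7076 and 26459 in the same genotypes. *LEU1* was 3.67-fold lower, *ILV2* 3.07-fold, *ILV1* 3.00-fold and *ILV3* 2.75-fold. The regulator gene *LEU3* was level (898 in rtg3Δ met15Δ, 907 in met15Δ cells).

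For histidine and the aromatic amino acids the count was 13 of 19 lower and none higher (median log2 ratio -1.36). *HIS7* had 1066 in rtg3Δ met15Δ and 6996 in met15Δ cells, *TRP4* 659 and 2977, and *ARO4*, a DAHP synthase that tyrosine inhibits, 2918 and 11234. Its isoenzyme *ARO3* did not differ in this way, at 12369 and 12049.7. *ARO10*, a decarboxylase of aromatic amino acid breakdown, was 12.4-fold lower (846 in rtg3Δ met15Δ, 10482 in met15Δ cells). *HIS3* read 4271 in rtg3Δ met15Δ and 9662 in met15Δ cells although these strains carry *his3Δ1*, and where its probes lie in the gene is not given in the sources used here.

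Several genes of arginine synthesis were lower. *ARG3*, *ARG7* and *ARG4* were 3.32-fold, 3.22-fold and 3.14-fold lower, while *CAR1*, arginase, was 3.13-fold higher, with 4033 in rtg3Δ met15Δ and 1287 in met15Δ cells. *CAR2*, the next enzyme of arginine breakdown, had 5037 in rtg3Δ met15Δ and 6241 in met15Δ cells, within 2-fold. Over the list 6 of 13 were lower and 1 higher (median -0.87). On the list of amino acid permeases, which also holds some peptide transporter genes, *TPO1* and the sensor gene *SSY1*, 6 of 23 were lower and 3 higher. The peptide transporter genes *PTR2* and *OPT2* were among the higher ones and *OPT1* among the lower ones. The minimum was met only through met15Δ cells by 3 of the lower genes, and only through the double mutant by 1 of the higher ones. For the 19 above it on both arrays the median log2 ratio was -0.03. *DIP5*, the permease of glutamate and aspartate, had 298 in rtg3Δ met15Δ, 6123 in met15Δ and 9242 in wild-type cells (20.6-fold between the mutants). *BAP2*, for branched-chain amino acids, had 1366 in rtg3Δ met15Δ, 14103 in met15Δ and 21596 in wild-type cells, whereas its relative *BAP3* was 2.88-fold higher (1531 in rtg3Δ met15Δ, 531 in met15Δ cells).

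In the sulfur pathway, which the *MET15* deletion interrupts in both mutants, signals went both ways, 7 of 33 lower and 4 higher (median log2 ratio -0.23). The lower genes included *MET5*, a sulfite reductase subunit (3706 in rtg3Δ met15Δ, 11981 in met15Δ cells), the sulfate permease gene *SUL1* (2.58-fold), *HOM2* and *HOM6* of homoserine synthesis (2.05-fold and 2.28-fold) and *CYS4* (2.01-fold). The other sulfate permease gene, *SUL2*, was 2.13-fold higher, and *MHT1*, which methylates homocysteine, 2.39-fold. The S-adenosylmethionine synthetase genes differed in direction, *SAM1* with 3881 in rtg3Δ met15Δ and 7859 in met15Δ cells and *SAM2* with 5766 and 1575. *MET32*, a zinc-finger activator of the pathway, was 3.53-fold higher.

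Genes of one-carbon metabolism and purine synthesis followed those of the amino acids. Of 13 one-carbon genes 8 were lower (median log2 ratio -1.26). *GCV1* and *GCV2*, subunits of glycine decarboxylase, had 3065 and 2857 in rtg3Δ met15Δ and 15043 and 13369.5 in met15Δ cells. *MTD1*, *ADE3* and *SHM2*, which interconvert folate one-carbon units in the cytosol, were 3.39-fold, 2.86-fold and 2.76-fold lower. The mitochondrial isoforms *SHM1* and *MIS1* had log2 ratios of 0.01 and 0.11. *FDH1*, formate dehydrogenase, was the 1 higher gene of the list and among the highest of all, with 7011 in rtg3Δ met15Δ, 442 in met15Δ and 1399 in wild-type cells. *FDH1* met the minimum only through the double mutant.

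In purine synthesis 7 of 14 genes were lower, *ADE4*, the first enzyme of the pathway, 4.63-fold (1631 in rtg3Δ met15Δ, 7556 in met15Δ cells), *ADE2* 4.36-fold and *ADE1* 3.55-fold. The inosine monophosphate dehydrogenase genes parted, *IMD3* with 2179 in rtg3Δ met15Δ and 7156 in met15Δ cells and *IMD4* with 1869.9 and 622. Close paralogs such as these share sequence, and how far their probes cross-hybridize was not tested.

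Thiamine and pyridoxine genes were lower in 10 of 15 cases and higher in none (median log2 ratio -1.74). *THI4*, the thiazole synthase, had 602 in rtg3Δ met15Δ, 16495 in met15Δ and 1765 in wild-type cells, 27.4-fold lower than in met15Δ cells. *THI20* was 5.47-fold lower, the thiamine transporter gene *THI7* 3.96-fold and the activator gene *THI2* 3.93-fold. *SNZ1* and *SNO1*, neighbouring genes of pyridoxine synthesis, had 7575 and 1017 in rtg3Δ met15Δ, against 27818 and 6603 in met15Δ and 31544 and 11612 in wild-type cells. For *SNZ3* the signals were 3196 in rtg3Δ met15Δ, 11106 in met15Δ and 3496 in wild-type cells, so that the double mutant was close to wild-type for *SNZ3* and below it for *SNZ1*.

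**Figure D3:**
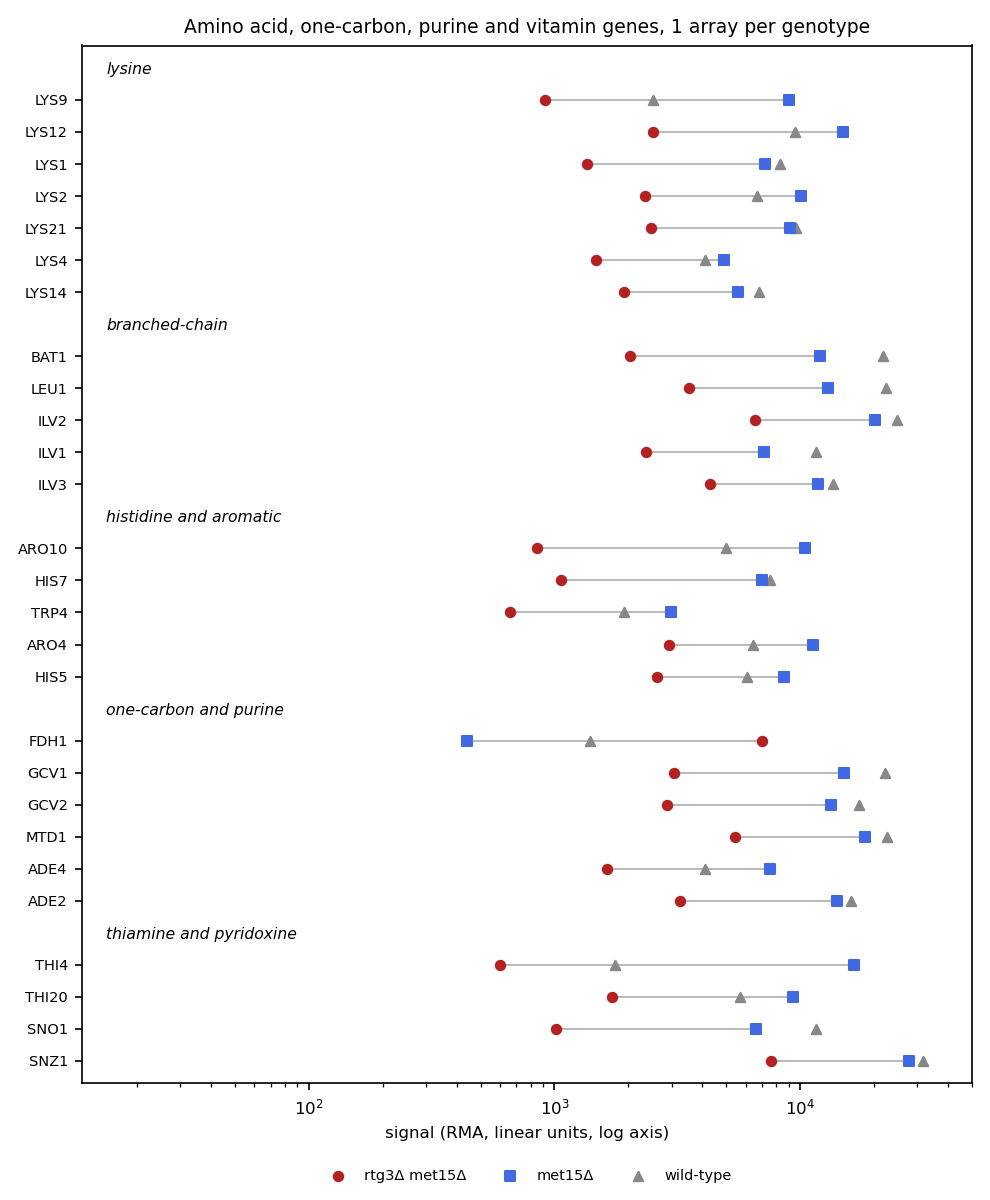
Signals (horizontal, log axis) of biosynthetic genes in rtg3Δ met15Δ (circles), met15Δ (squares) and wild-type cells (triangles), 1 array each, with a line between the mutants. The genes drawn were chosen with their values known, and the circle lies left of the square for each except *FDH1*, where it lies right (7011 against 442). Members of the same lists that are not drawn include *LYS5*, *BAT2*, *ARO3* and *IMD4*, with log2 ratios of 0.35, 0.13, 0.04 and 1.59.

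In the phosphate regulon 8 of 19 genes were lower and 1 higher (median log2 ratio -0.85). *PHO89*, a sodium-phosphate cotransporter, had 1879 in rtg3Δ met15Δ, 25059.9 in met15Δ and 22229.8 in wild-type cells, and *PHO84*, the high-affinity transporter, 4652, 24586 and 11034. *SPL2*, which restrains low-affinity uptake, was 6.48-fold lower, and the low-affinity transporter genes *PHO87* and *PHO90* were 2.25-fold and 2.19-fold lower. The vacuolar phosphate transporter gene *PHO91* was level, with 1436 in rtg3Δ met15Δ and 1452 in met15Δ cells. The acid phosphatase gene *PHO5* was within 2-fold (972 in rtg3Δ met15Δ, 896 in met15Δ cells), and *PHO85*, the kinase that restrains the regulon, was 2.97-fold higher. In the zinc regulon 3 of 11 genes were lower and none higher (median -0.43), namely *ZPS1* (3.89-fold), *ZRG17* (2.81-fold) and the activator gene *ZAP1* (2.19-fold), while the zinc transporter genes *ZRT1*, *ZRT2* and *ZRT3* had log2 ratios of -0.11, -0.56 and -0.15.

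The iron regulon stood on the other side, with 7 of 23 genes higher and none lower (median log2 ratio 0.56, or -0.22 with scaling to the bacterial controls). The minimum was met only through the double mutant by 2 of the higher genes. *FET3*, the multicopper oxidase of iron uptake, had 8019.7 in rtg3Δ met15Δ, 3048 in met15Δ and 1105 in wild-type cells. The reductase genes *FRE3* and *FRE1* were 5.01-fold and 2.67-fold higher, and the siderophore transporter gene *ARN1* 2.50-fold.

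Genes of protein synthesis were lower as a group, by small ratios. Of 39 ribosome biogenesis genes 17 were at least 2-fold lower and none higher, 36 lay below the median of all genes, and the median log2 ratio was -0.99. The minimum was met only through met15Δ cells by 3 of the lower genes. *UTP22* and *RRP12*, factors of the small subunit's assembly, were 3.94-fold and 3.67-fold lower. For cytosolic ribosomal protein genes the median was -0.64, with 4 of 38 lower. Among these the 2 copies of the S9 protein went opposite ways, *RPS9B* with 3982 in rtg3Δ met15Δ and 8889 in met15Δ cells and *RPS9A* with 3453 and 1502. Of 19 aminoacyl-tRNA synthetase genes 7 were lower and none higher (median -0.87), with the leucyl-tRNA synthetase gene *CDC60* at 1310.4 in rtg3Δ met15Δ and 6422 in met15Δ cells. Mitochondrial ribosomal protein genes had a median of 0.36, which scaling to the bacterial controls turns to -0.43, and 6 of 40 were higher.

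**Figure D4:**
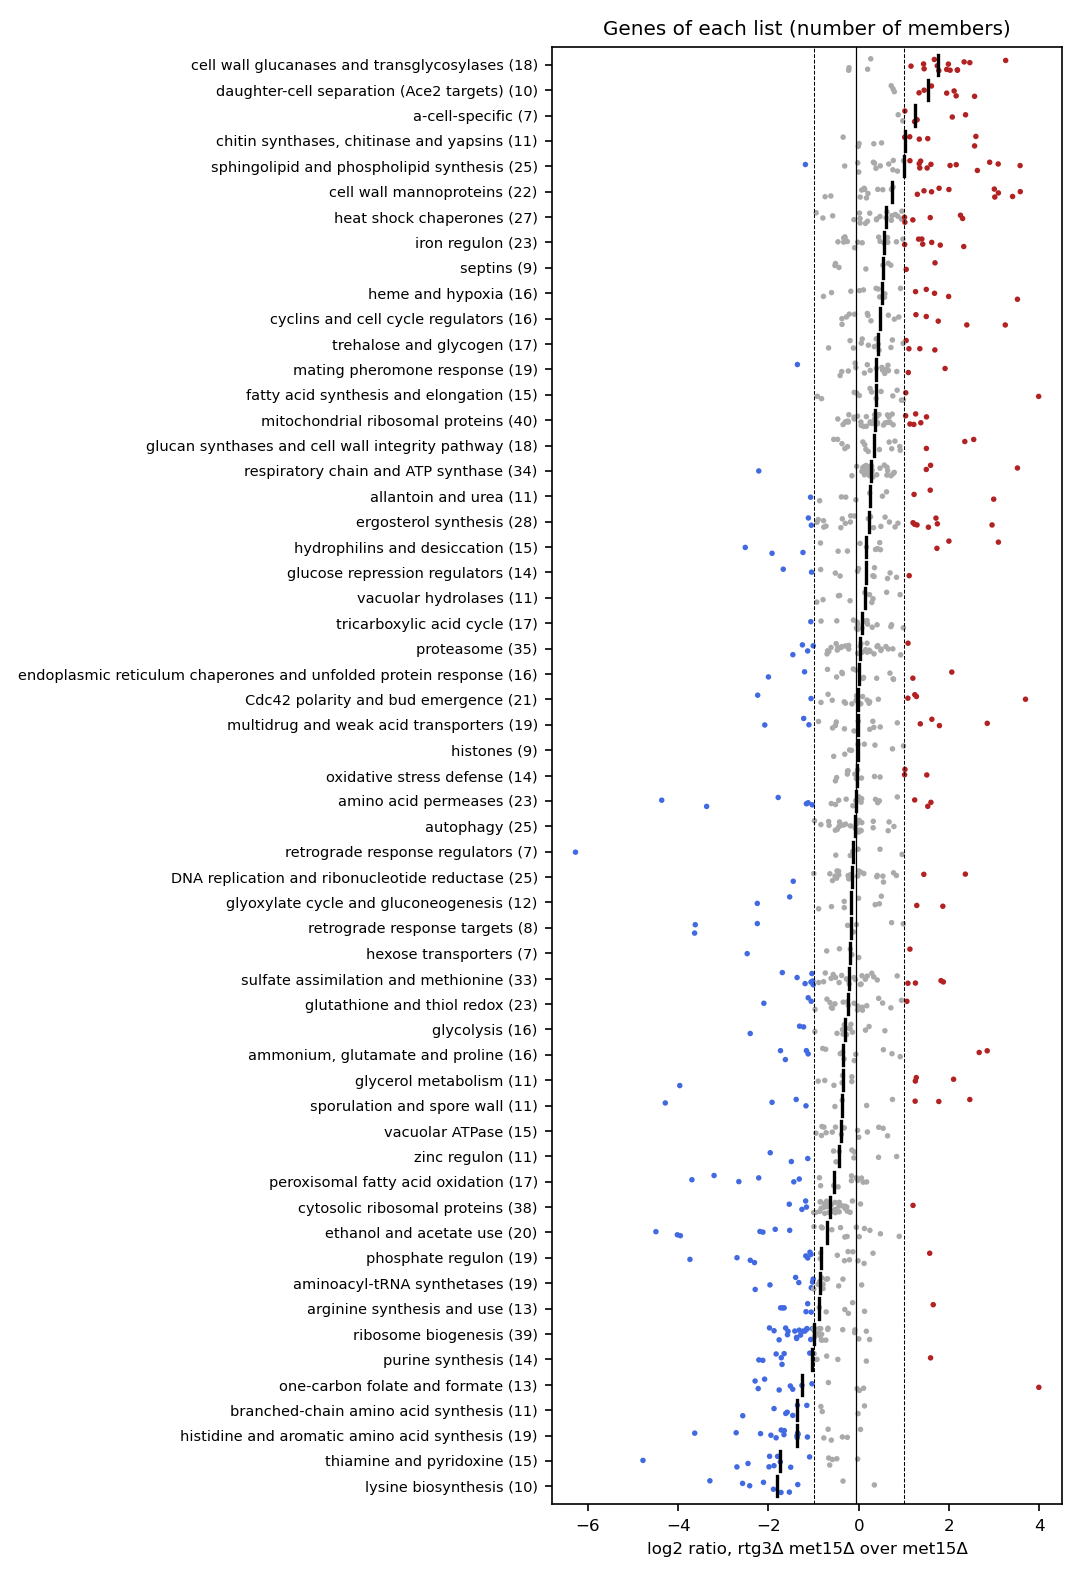
Log2 ratio of signals, rtg3Δ met15Δ over met15Δ (horizontal), for the members of each gene list with at least 5 members (rows, with the number of members). Each point is a gene (red at least 2-fold higher, blue at least 2-fold lower), the thick bar is the list's median, the thin line the median of all genes (-0.07) and the dashed lines mark 2-fold; lysine synthesis has the lowest median (-1.81) and cell wall glucanases the highest (1.75) of the lists drawn.

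The cell surface stood on the higher side. In the list of wall glucanases and transglycosylases, 18 of 22 genes met the minimum, 14 of them stood at least 2-fold higher, with no lower gene (median log2 ratio 1.75, and 0.97 with 8 higher after scaling to the bacterial controls). Of the higher genes 7 met the minimum only through the double mutant, and among the 11 above it on both arrays 7 were higher, with a median of 1.67. *SCW10* had 6513 in rtg3Δ met15Δ, 684 in met15Δ and 5683 in wild-type cells. *GAS5*, a glucan elongase, had 6842 in rtg3Δ met15Δ and 1359 in met15Δ cells, and *CRH1*, which joins chitin to glucan, 4940.3 and 1088. The abundant glucanase gene *BGL2* had a log2 ratio of 0.20 and *EXG1* one of -0.22.

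Mannoproteins, which form the outer layer of the wall, were higher in 10 of 22 genes and lower in none (median 0.74, or -0.04 with scaling to the bacterial controls). The minimum was met only through the double mutant by 2 of the higher genes, and for the 19 above it on both arrays the median was 0.53. *SRL1* had 7696 in rtg3Δ met15Δ, 727 in met15Δ and 973 in wild-type cells, and *YGP1*, a secreted glycoprotein of stationary phase, 24922, 2925 and 3593. *CWP1* and *TIP1* stood far higher, at 4903 and 13046 in rtg3Δ met15Δ cells, against 411 and 1629.8 in met15Δ cells. The wall proteins with the highest signals in met15Δ cells, *SED1*, *CCW12* and *PIR3*, stayed within 2-fold, with log2 ratios of 0.13, 0.53 and 0.20. *MID2* and *WSC2*, sensors of wall stress, were 5.83-fold and at least 4.16-fold higher, while the kinase genes *PKC1* and *SLT2* below them had log2 ratios of -0.25 and 0.67. On their list of glucan synthases and the wall integrity pathway 3 of 18 genes were called, *ROM1* being the remaining one (median 0.33, or -0.45 with the bacterial scaling).

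Phospholipid genes were higher as well. Of 25 genes of sphingolipid and phospholipid synthesis 12 were higher and 1, *PCT1*, lower (median log2 ratio 0.99, still 0.21 with scaling to the bacterial controls). The minimum was met only through the double mutant by 3 of the higher genes, and for the 21 above it on both arrays the median was 0.86. *INO1*, inositol-3-phosphate synthase, had 10268 in rtg3Δ met15Δ, 1664 in met15Δ and 1932 in wild-type cells. *CHO2*, which methylates phosphatidylethanolamine, was 4.06-fold higher, *CHO1*, phosphatidylserine synthase, 2.58-fold and *PIS1*, phosphatidylinositol synthase, 8.49-fold (6294 in rtg3Δ met15Δ, 741 in met15Δ cells). The repressor gene *OPI1* was 2.86-fold higher too. *RSB1*, a sphingoid base transporter, had 5555 in rtg3Δ met15Δ and 467 in met15Δ cells, and the ceramidase gene *YPC1* 13959.9 and 1873. In ergosterol synthesis 7 of 28 genes were higher and 2, *ERG12* and *ERG24*, lower (median 0.24, or -0.55 with the bacterial scaling), with *ERG4*, the last enzyme, at 2507 in rtg3Δ met15Δ and 324 in met15Δ cells. The minimum was met only through the double mutant by 2 of these higher genes, *ERG4* among them. *EHT1*, which makes ethyl esters of fatty acids, was 15.8-fold higher (7295 in rtg3Δ met15Δ, 462 in met15Δ cells). It too met the minimum only through the double mutant.

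Some cyclin genes had more signal in the double mutant, from levels within background in met15Δ cells. *CLN1* and *CLN2*, the G1 cyclins, had 1593 and 791 in rtg3Δ met15Δ cells, against 168 and 234 in met15Δ cells, where both lay within background (at least 5.83-fold and at least 2.89-fold higher). *CLB1*, a mitotic cyclin, was at least 3.17-fold higher. Of 26 genes on that list 16 met the minimum, and all 5 that were called (also *CLN3* and *SWE1*) met it only through the double mutant, so that the count follows from that choice (list median 0.46, or -0.32 with the bacterial scaling). On the list of DNA replication and ribonucleotide reductase 2 of 25 genes were higher and 1 lower (median -0.15). *RNR1*, the large subunit of ribonucleotide reductase, was at least 4.40-fold higher (1204 in rtg3Δ met15Δ, 235 in met15Δ and 1487 in wild-type cells), and *DIF1*, which controls the localization of the small subunits, 2.71-fold, both meeting the minimum only through the double mutant. *RNR2* was 2.73-fold lower. The helicase genes *MCM2* and *MCM4* had log2 ratios of 0.04 and -0.18. None of 9 histone genes was past 2-fold, with a median log2 ratio of -0.02. In these bulk samples, a change in the number of cells of a kind and in transcript per cell cannot be told apart.

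Of 10 genes of daughter-cell separation 7 were called higher, 4 of which (*DSE1*, *DSE2*, *EGT2* and *SCW11*) met the minimum only through the double mutant. *CTS1*, the chitinase that splits mother from daughter, had 8744 in rtg3Δ met15Δ, 1479 in met15Δ and 1179 in wild-type cells. *ASH1*, whose transcript is carried into daughters, had 7582 in rtg3Δ met15Δ, 1756 in met15Δ and 539 in wild-type cells. *AMN1*, which acts in the exit from mitosis, was 3.05-fold higher. *GIC2*, an effector of the polarity GTPase Cdc42, had 3383 in rtg3Δ met15Δ, 262 in met15Δ and 2809 in wild-type cells, while *CDC42* itself had a log2 ratio of 0.05. On the same list *BUD5*, a bud-site gene, was at least 4.43-fold lower. *GIC2* met the minimum only through the double mutant and *BUD5* only through met15Δ cells.

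Some mating genes of both cell types had higher signals in rtg3Δ met15Δ cells. Of the a type 5 of 7 were called, 2 of them meeting the minimum only through the double mutant, and of the alpha type 3, each of which met it only in that way. Among the genes of a cells, *STE2*, the receptor of alpha-factor, had 4718 in rtg3Δ met15Δ and 917 in met15Δ cells, *BAR1*, the protease that destroys alpha-factor, 1646 and 392, and *MFA1* and *MFA2*, for a-factor, were 2.35-fold and 2.45-fold higher. In wild-type cells these 4 genes had 151, 71.1, 478 and 114. Among the genes of alpha cells, *MF(ALPHA)1*, for alpha-factor, had 2807 in rtg3Δ met15Δ, 101 in met15Δ and 344 in wild-type cells, at least 10.3-fold higher. *STE3*, the receptor of a-factor, had 1146 in rtg3Δ met15Δ, 454 in met15Δ and 2157 in wild-type cells, and *AFB1* 667, 306 and 3924. *MF(ALPHA)2* stayed at 129 in rtg3Δ met15Δ and 129 in met15Δ cells, within background, and *SAG1* had 1744 and 1232. The alpha-specific *HMLALPHA1* was not above background on either array, as given above. Signals above background for *MF(ALPHA)1*, *STE3*, *AFB1* and *SAG1* in rtg3Δ met15Δ cells thus stood beside that of *HMRA1*. In met15Δ cells this held for *STE3*, *AFB1* and *SAG1*. Whether other cells in the culture contributed these signals was not tested. At the mating-type loci 1 of 2 genes that met the minimum was called higher (log2 ratio 1.24), while the other, *HMRA1*, stayed within 2-fold. The list median was 0.77, or -0.01 with the bacterial scaling, which left neither called higher. *FUS1*, a pheromone-induced fusion gene, was at least 2.55-fold higher.

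**Figure D5:**
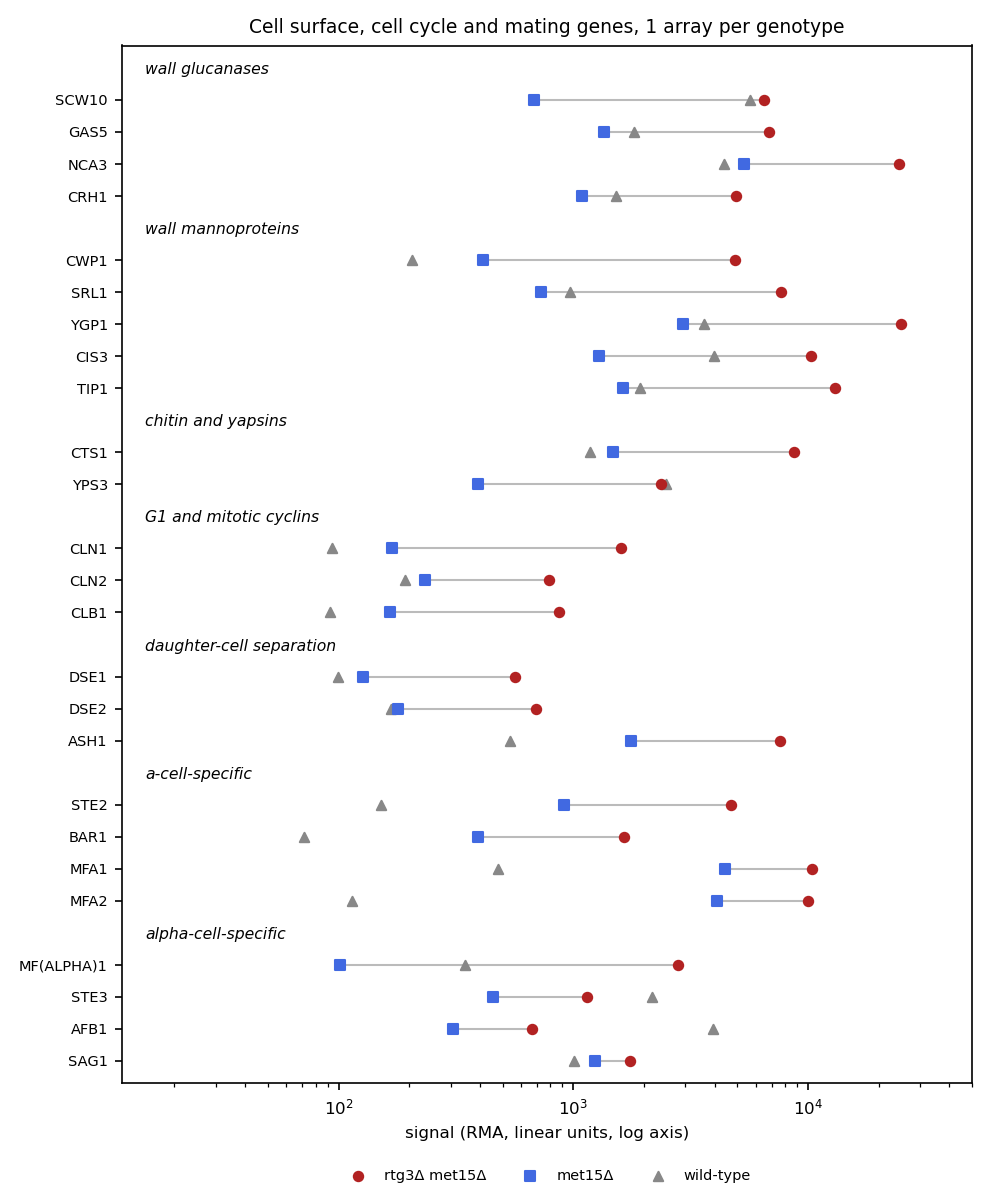
Signals (horizontal, log axis) of cell surface, cell cycle and mating genes in rtg3Δ met15Δ (circles), met15Δ (squares) and wild-type cells (triangles), 1 array each, with a line between the mutants. The genes drawn were chosen with their values known, and the circle lies right of the square for each. Members of the same lists that are not drawn include *EXG1* and *DAN4*, with log2 ratios of -0.22 and -0.75. Signals under 273 in met15Δ cells, such as those of *CLN1* and *MF(ALPHA)1*, are within background.

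Stress genes differed by list. Of 27 heat shock genes 6 were higher and none lower (median log2 ratio 0.61, or -0.18 with scaling to the bacterial controls). *APJ1* and *CPR6*, co-chaperones, were 4.92-fold and 4.76-fold higher. In trehalose and glycogen metabolism 4 of 17 were higher, with *UGP1*, which makes UDP-glucose, at 12073 in rtg3Δ met15Δ and 3757 in met15Δ cells (list median 0.43, or -0.35 after that scaling). *HAC1*, the activator of the unfolded protein response, was 4.17-fold higher by total transcript, while *KAR2*, its chaperone target, had a log2 ratio of 0.69 and *EUG1*, a protein disulfide isomerase, had 1214 in rtg3Δ met15Δ and 4854 in met15Δ cells. Among oxidative stress genes 3 of 14 were higher and none lower (median -0.04), *TSA2* 2.84-fold, *CCP1* 2.03-fold and *GPX1* 2.02-fold, while *SOD2*, *CTT1* and *TSA1* had log2 ratios of -0.03, -0.09 and -0.52. Hydrophilin and desiccation genes had 3 higher and 3 lower of 15 (median 0.17, or -0.61 with the bacterial scaling). In glycerol metabolism *GPP1*, glycerol-3-phosphatase, had 1269 in rtg3Δ met15Δ, 19794 in met15Δ and 31449 in wild-type cells, while *GPP2* had a log2 ratio of -0.90 and the glycerol symporter gene *STL1* was 4.28-fold higher.

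Other lists held few calls. None of 25 autophagy genes, 11 vacuolar hydrolase genes and 15 vacuolar ATPase genes differed 2-fold between the mutants, with medians of -0.08, 0.13 (-0.65 with the bacterial scaling) and -0.38. The proteasome list had 4 lower and 1 higher of 35 (median 0.03, or -0.75 with the bacterial scaling), the lower ones being *BLM10*, *PRE3*, *RPN7* and *PRE1* and the higher one *RPN4*, its transcriptional activator (12702 in rtg3Δ met15Δ, 5967 in met15Δ cells). Of the single genes with the most extreme ratios that belong to none of these lists, *YNR014W* had 6698 in rtg3Δ met15Δ, 212 in met15Δ and 895 in wild-type cells. *YDL218W* had 216 in rtg3Δ met15Δ, 4962 in met15Δ and 218 in wild-type cells, and *VBA3*, a vacuolar basic amino acid permease, 69.8, 2155 and 536. *PRY2* and *TOS6* had 4657 and 1934 in rtg3Δ met15Δ and 419 and 177 in met15Δ cells, and *UPS2*, a lipid transfer protein of mitochondria, was 10.1-fold higher. Also among the 15 highest, *YJR115W* had 8893 in rtg3Δ met15Δ and 799 in met15Δ cells, and *YGL041C-B* was at least 5.82-fold higher. *YNR014W*, *PRY2*, *TOS6* and *YGL041C-B* met the minimum only through the double mutant, and *YDL218W* and *VBA3* only through met15Δ cells.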

How the data were processed

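Total RNA of 3 yeast genotypes on day 3 was hybridized to Affymetrix Yeast Genome 2.0 arrays, 1 per genotype. The deposited intensity values are the authors' RMA signals per probe set on the natural scale, background-corrected in RMAExpress 1.0.4, and the submitters' processing notes name RMA. How it normalized between arrays is not given in the sources used here. Log2 ratios of these signals were computed with no further scaling (Python 3.11.15, pandas 2.3.3, NumPy 2.4.6). A check on simulated signals planted changes well past 2-fold with little noise, so its outcome followed from these settings and does not bear on noise between single arrays.

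Genes were assigned from the platform's annotation, with symbols updated through assembly R64. Of 10928 probe sets, 5498 have 1 *S. cerevisiae* gene, 1746 a gene of another species, 1 several symbols, and 3517 none, besides 166 controls. Of the gene-linked probe sets 128 read shared sequence. A planned search of promoters was not run, and no promoter sequence was used here.

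The comparison and the 61 lists (1128 genes, 1006 of them meeting the minimum) were chosen with earlier results of these data known. Genes named were the 15 highest and 15 lowest and all members of the retrograde, methylcitrate and glyoxylate lists. Added to these were some of the deleted-gene list, up to 6 called members and 2 others of each other list, and some neighbours of the deleted genes. Further list members, and genes that contrast with a named one, were named after their values were seen. Alternatives were 4 scalings, other signal minimums and folds, and other treatments of low signals.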

Additional observations from a re-analysis of the deposited data

How the results depend on the processing

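The counts depended on the fold threshold and, for some choices, on the scaling. Dividing each array by the median of all its probe sets gave 834 lower probe sets, and the bacterial controls gave 138 higher and 2049 lower, in place of 509 and 555. A 3-fold threshold left 203 and 160, and a 1.5-fold threshold gave 968 and 1225. The counts stayed within 1.5 times under the *S. cerevisiae* median (580 and 444), quantile normalization, raised or offset low signals, and signal minimums of 100, 1000 or none. Of 393 genes chosen by the naming rule, 178 crossed 2-fold with the bacterial controls and 59 with the median of all probe sets. At most 11 did so under any other setting. No called gene or list median changed sign. With constant scalings this was fixed beforehand, since the largest shift, 0.78, is below the log2 ratio of 1 that a call needs. Among all 61 list medians, called or not, 21 changed sign with the bacterial controls. No paired analysis was possible because each genotype has 1 array. Signals within background, under 273 in met15Δ cells, limit folds to lower bounds, and the spread between cultures is unknown.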

Other observations

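Some pairs of closely related genes had opposite calls between the mutants, chosen here after their values were seen. The respiratory genes *RGI2* and *RGI1* had log2 ratios of -2.51 and 1.73 in rtg3Δ met15Δ over met15Δ cells. For *RGI2* the signals were 1769 in rtg3Δ met15Δ, 10099 in met15Δ and 7101 in wild-type cells, and for *RGI1* 20066, 6049 and 16679 in the same genotypes. The pairs described above had -1.02 for *SAM1* and 1.87 for *SAM2*, -1.72 for *IMD3* and 1.59 for *IMD4*, -3.37 for *BAP2* and 1.53 for *BAP3*, and -1.16 for *RPS9B* and 1.20 for *RPS9A*. For the hexose transporter genes the values were -2.47 for *HXT2* and 1.13 for *HXT4*. With the bacterial controls the higher member had a log2 ratio of 0.95 for *RGI1*, 1.09 for *SAM2*, 0.81 for *IMD4*, 0.74 for *BAP3*, 0.42 for *RPS9A* and 0.35 for *HXT4*, so that of these higher calls only that of *SAM2* stayed past 2-fold under that scaling.

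Drug and weak acid transporters also parted. *QDR2* had 2109.9 in rtg3Δ met15Δ, 294 in met15Δ and 4653 in wild-type cells (7.18-fold higher than in met15Δ cells). It met the signal minimum only through the double mutant. *TPO4*, *PDR15* and *YOR1* were 3.45-fold, 3.07-fold and 2.57-fold higher. *ATR1*, *PDR12*, the exporter of weak organic acids, and *QDR3* were 4.23-fold, 2.33-fold and 2.15-fold lower. Genes of sporulation, which haploid cells do not complete, were mostly dim, and 11 of 31 met the signal minimum. Among them *RRT12*, a spore wall gene, had 79.2 in rtg3Δ met15Δ and 1543 in met15Δ cells, *SPS100* 10864 and 24425, and *GAS4*, a spore wall glucan elongase, 858 and 156. *RRT12* met the minimum only through met15Δ cells and *GAS4* only through the double mutant.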
